A study of Arabidopsis thaliana with 8 samples.

Results

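The subject here is the difference of the cold responses between a transgenic line and its wild type: the change with cold in L20 minus the change with cold in wild type, for every Arabidopsis probe set of the array. A probe set is a group of short probes that together read a gene, or in some cases several genes. The array holds 22810 probe sets, and the 22746 that are not AFFX controls all entered, with no filter on low values. The seedlings came from L20, a line that overexpresses TabZIP6, and from the wild-type ecotype Col-1. TabZIP6 comes from wheat and encodes a bZIP protein, a transcription factor with a basic DNA-binding region and a leucine zipper. The 4 groups were L20 after 6 h at 4 °C, wild type after the same cold, L20 before cold at 22 °C and wild type before cold. Whole seedlings aged 10 days were used, with 2 biological replicates per group and 1 array each, 8 in all. L20 is 1 line, the sources used here do not name the promoter that drives the transgene, and TabZIP6 itself has no probe set, so its level was not analysed here.

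In cold, plants switch on the CBF (C-repeat binding factor) transcription factors, which bind a short element in the promoters of cold-regulated (COR) genes. The COR genes encode protective proteins, among them dehydrins, which are very soluble and shield membranes and enzymes during freezing and drying. bZIP factors bind elements with an ACGT core, which occur in many genes of the abscisic acid, light and stress responses. Growth genes of the auxin and brassinosteroid responses and early wound and touch genes also respond to cold.

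All values below are log2 signals or differences of log2 signals. A difference of the cold responses, also called the interaction, is by arithmetic the L20 minus wild type difference after cold less the same difference before cold. A value below 0 therefore comes from a gene that was relatively higher in L20 before cold, relatively lower in L20 after cold, or both. Each probe set was given an origin by the size of those 2 differences. The origin was before cold where the difference before cold was at least 2 times the one after cold in size, after cold where the reverse held, and both otherwise.

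No probe set passed the test of the interaction. By limma over 22746 probe sets, 0 (0%) had an adjusted p under 0.05, and the lowest adjusted p was 0.297. At an unadjusted p under 0.05 there were 497 probe sets (2.18%), fewer than that threshold alone would give if no probe set differed. A fit that held the replicate number as a block also called 0 (0%), the lowest adjusted p was 0.0714, and 1215 (5.34%) had an unadjusted p under 0.05. That share is near what the threshold alone would give. Each gene below is therefore described by its values, and none of them is called as a difference of cold responses.

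The genotype difference itself was tested on both sides of the cold. Before cold 4 probe sets passed (0.0176%), 3 higher and 1 lower in L20, or 38 (0.167%) with the replicate block. These calls before cold, AT1G16850, AT1G72920 and AT4G30470 among them, ended when any 1 of the 8 arrays was left out of the fit without the block. After cold 0 passed (0%) with or without the block, and the lowest adjusted p was 1 in both fits. At an unadjusted p under 0.05 there were 19 of 22746 probe sets after cold and 1259 before cold, or 129 and 2535 with the block. The counts after cold are fewer than that threshold alone would give if no probe set differed. The median SE was 0.243 on both sides, or 0.172 with the block. Over probe sets the differences had an SD of 0.145 after cold and 0.371 before cold. The test after cold was thus strict, and its 0 calls do not show that the lines were alike. Equal replicate numbers also paired the lines more tightly in chilled than in unchilled arrays. What part this pairing has in the contrast between the 2 sides was not tested.

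The differences with the smallest p-values had their origin almost wholly before cold. Of the 130 probe sets (0.572%) with an interaction p under 0.01, 127 had their origin before cold, 1 after cold and 2 on both sides with opposite signs. The 130 are fewer than a threshold of 0.01 alone would give if no probe set differed. Their median difference between L20 and wild type was 0.10 in size after cold and 1.5 before cold. Over all probe sets the medians were 0.09 and 0.16, and 46.9% had their origin before cold. Before cold the arrays of L20 and wild type did not overlap for 130 of these 130, where 27.7% of all probe sets were free of overlap. After cold they did not overlap for 23 of the 130, where the share over all probe sets was 14.8%. The 130 were chosen by the interaction, which uses the same arrays, so these counts describe where their difference sits and test nothing. Without replicate 1 of L20 after cold the share with an origin before cold was 83.5%, against 97.7% with all arrays.

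**Figure D1:**
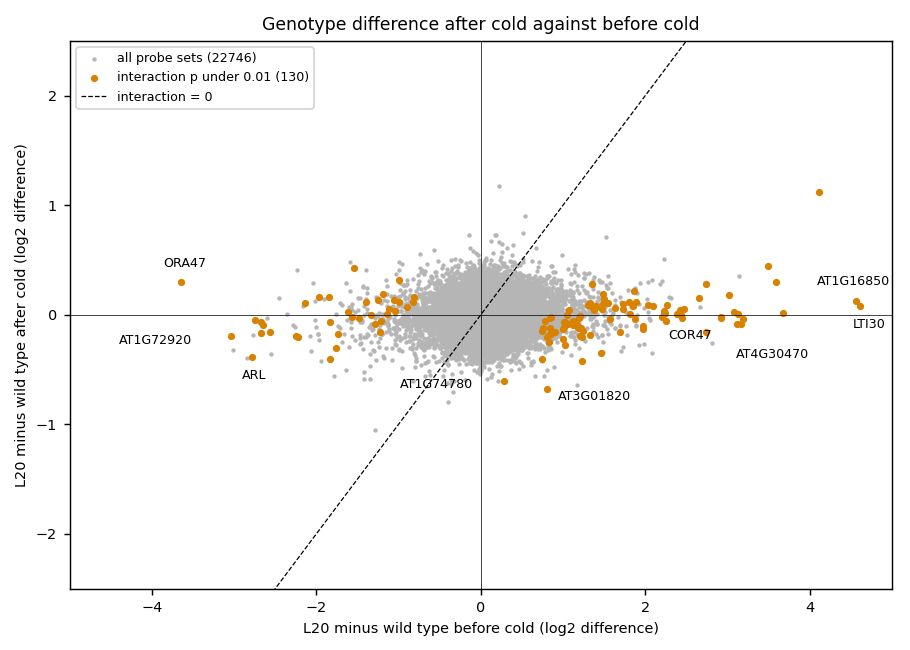
Each point is 1 probe set, with L20 minus wild type after cold on the vertical axis and before cold on the horizontal axis, both as log2 differences. Orange points are the 130 with an interaction p under 0.01; 127 of them lie within 0.5 of 0 after cold, while 111 lie more than 1 from 0 before cold. The dashed line marks an interaction of 0, and ORA47 to the left and LTI30 and AT1G16850 to the right are the outermost points.

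The replicate numbers gave a check with arrays that the choice did not use. Taken over all 22746 probe sets, whose values depend on one another, the interaction within replicate 1 correlated with that within replicate 2 at 0.219. The difference between L20 and wild type correlated between the numbers at -0.01 after cold and at 0.276 before cold. The part of the shared interaction carried by the difference before cold was 101.3% when the interaction of replicate 1 was set against replicate 2 and 109.6% the other way round. Values above the whole mean that the part from after cold was slightly negative. No p is given for these correlations, since the probe sets of 1 array share its RNA and its processing.

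Probe sets chosen in 1 replicate number were then read in the other, where the median interaction lay on the same side of 0 and its before-cold part was the larger. The 200 with the lowest interaction in replicate 1, with a median of -2.31 there, had a median interaction of -0.60 in replicate 2, made of 0.00 after cold and 0.62 before cold. Those chosen as lowest in replicate 2, with a median of -1.27 there, stood at -1.33 in replicate 1, from 0.07 after cold and 1.35 before cold. The 200 with the highest interaction in replicate 1, with a median of 1.37 there, stood at 0.66 in replicate 2, from 0.01 after cold and -0.62 before cold. Those highest in replicate 2, with a median of 1.94 there, stood at 0.36 in replicate 1, from -0.04 after cold and -0.37 before cold. The sign was kept by 163 and 175 of the lowest and by 145 and 129 of the highest, each of 200, while the sign was the same in both numbers for 51.5% of all probe sets.

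**Figure D2:**
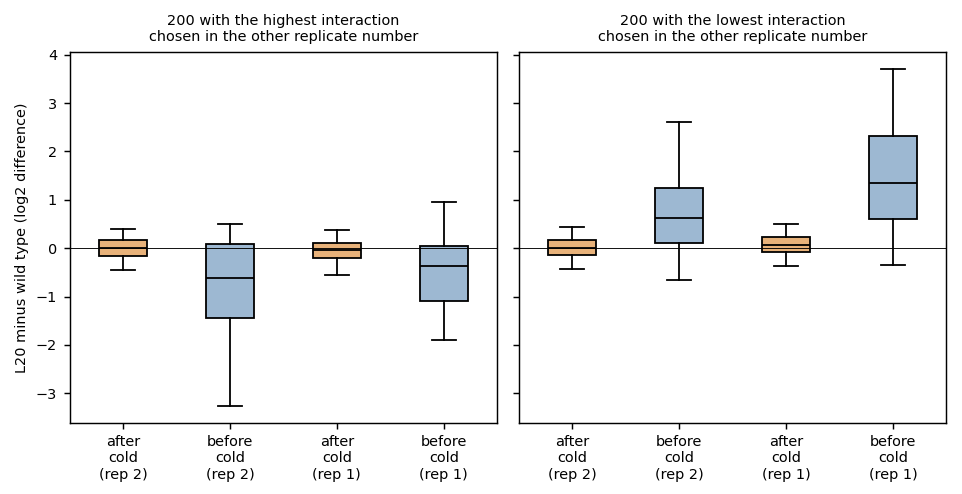
Boxes show the middle of the distribution with the median as a line, and whiskers run to the 5th and 95th percentiles, for 200 probe sets chosen by their interaction in the other replicate number. The vertical axis is L20 minus wild type as a log2 difference, after cold (orange) and before cold (blue). After cold every median lies within 0.08 of 0, while before cold the medians are -0.62 and -0.37 on the left and 0.62 and 1.35 on the right.

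The first group of genes is that of COR genes that stood high in L20 before any cold and overlapped with wild type after it. The dehydrin gene LTI30 was at 11.80 and 12.09 in L20 and 11.65 and 12.09 in wild type after cold. Before cold it was at 10.84 and 9.79 in L20, against 5.12 and 6.29 in wild type. Both L20 arrays stood over 3 units above both wild-type arrays before cold, and the groups overlapped after it. The interaction of LTI30 was -4.53 ± 0.67 (SE), within the replicates -5.57 and -3.49, with a limma adjusted p of 0.779, and 0.325 with the replicate block. Its cold response was 1.64 in L20 and 6.16 in wild type.

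AT1G16850, a locus with no gene name in the annotation used here, had the lowest adjusted p with the block. After cold it stood at 9.20 and 10.05 in L20 and 9.13 and 9.88 in wild type, and before cold at 9.20 and 9.44 in L20, against 4.68 and 4.83 in wild type. Only wild type before cold was low, and the other 3 groups overlapped. The interaction was -4.44 ± 0.49 (limma adjusted p = 0.297, and 0.0714 with the block) and was -4.44 in each replicate number. The difference before cold passed on its own, at 4.56 ± 0.35 (limma adjusted p = 0.0303, a call that ended when any 1 array was left out), and the cold response was 0.30 in L20 and 4.75 in wild type.

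The dehydrin gene COR47 showed the same layout at a higher level. It was at 12.44 and 12.24 in L20 and 12.38 and 12.36 in wild type after cold. Before cold the arrays read 12.62 and 12.51 in L20, against 9.75 and 10.48 in wild type. Unchilled L20 stood slightly above every chilled array. Its interaction of -2.48 ± 0.36 was made of -0.03 after cold and 2.45 before cold, with cold responses of -0.23 in L20 and 2.25 in wild type.

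COR15A and COR15B encode small chloroplast proteins that protect the plastid membranes in freezing. COR15B was at 11.45 and 10.80 in L20 and 11.19 and 10.90 in wild type after cold, and at 10.82 and 10.42 in L20, against 8.66 and 8.40 in wild type, before cold. COR15A was at 10.63 and 10.25 in L20 and 10.39 and 10.34 in wild type after cold, and at 9.70 and 10.14 in L20, against 7.82 and 8.31 in wild type, before cold. In both genes the lines overlapped after cold and were apart before it. The interactions were -2.02 ± 0.39 for COR15B and -1.78 ± 0.36 for COR15A, with cold responses of 0.50 and 0.52 in L20 and 2.52 and 2.30 in wild type. Of these 5 genes, only AT1G16850 had a difference before cold that passed without the block, while LTI30, COR47 and COR15B passed with it (limma adjusted p = 0.0376, 0.0371 and 0.0164) and COR15A missed (0.0583).

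The list of COR genes and other CBF targets named 23 loci, of which 9 could be matched to a probe set named here. The other loci were not analysed here, so the counts below cover the smaller part of the list. Of the 9 measured members 8 had an interaction below 0 at an unadjusted p under 0.05, where 1.47% of all probe sets did, and 0 passed the adjusted test. The list's median interaction was -2.02, made of 0.08 after cold and 2.09 before cold, beside a median interaction of -0.04 over all probe sets. All 9 had their origin before cold, where 46.9% of all probe sets did. AT1G16850, AT1G51090 and AT4G12000 were put on this list because earlier results of these data were known. Without these 3 loci, 5 of 6 members stood below 0 at that threshold, and the median was -1.90, or -1.80 and -2.03 in the replicate numbers. The exception was AT4G33980 at 0.36 ± 0.50, within the replicates -0.35 and 1.07. Its difference before cold was -0.45, opposite in sign to that of the other members. COR27, a cold-induced regulator of the clock, stood at -1.15 ± 0.46, within the replicates -1.69 and -0.60. The difference before cold of COR27 was also uneven, at 1.75 and 0.29 in the replicate numbers. Of the 5 measured genes of the LEA and dehydrin list, COR47 and LTI30 were the 2 below 0 at that threshold. LEA4-5, a late-embryogenesis protein gene, had an interaction of -1.89 ± 1.23, within the replicates -2.67 and -1.10.

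**Figure D3:**
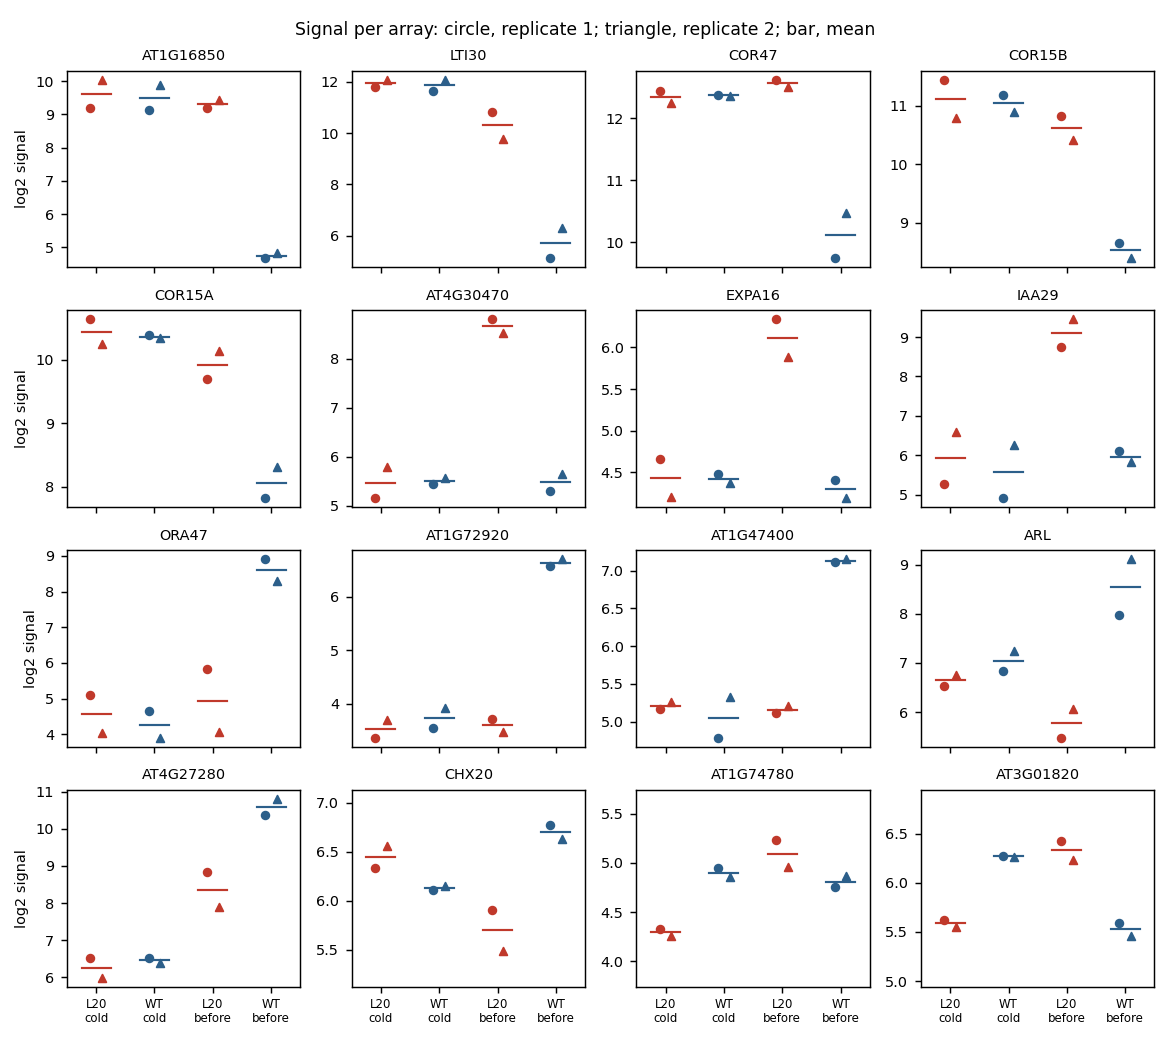
Log2 signal of 16 genes on each of the 8 arrays, with L20 in red and wild type in blue, after cold on the left and before cold on the right of each panel. Circles are replicate 1, triangles replicate 2 and bars the group means. In the COR genes wild type before cold is the lowest group, and in LTI30 and COR15A L20 before cold also lies below every chilled array. In AT4G30470, EXPA16 and IAA29 only L20 before cold is high, and in ORA47, AT1G72920 and AT1G47400 only wild type before cold is high.

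The second group is the mirror image, genes that stood high in unchilled wild type alone. AT1G72920, a locus without a name here, was at 3.37 and 3.70 in L20 and 3.54 and 3.93 in wild type after cold. Before cold it was at 3.73 and 3.47 in L20, against 6.58 and 6.70 in wild type. The interaction was 2.84 ± 0.31 (limma adjusted p = 0.297, and 0.135 with the block), and the difference before cold passed at -3.04 ± 0.22 (limma adjusted p = 0.0303). The cold response was -0.06 in L20 and -2.91 in wild type. Outside unchilled wild type its values lay below the lower quartile of every array, 4.03 to 4.13. Levels that low may not be told apart from no signal.

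ORA47 encodes a transcription factor of the ERF family that activates jasmonate synthesis. It was at 5.11 and 4.04 in L20 and 4.64 and 3.91 in wild type after cold, and at 5.82 and 4.07 in L20, against 8.91 and 8.29 in wild type, before cold. The 2 L20 arrays before cold differed with an SD of 1.24, and still both were under both wild-type arrays. Its interaction, 3.95 ± 0.89, was the highest of all 22746 probe sets, with 3.54 and 4.35 in the replicate numbers, and its limma adjusted p was 1, or 0.135 with the block. The cold response was -0.38 in L20 and -4.32 in wild type. In replicate 2 its signal was below the lower quartile of the array in every group but unchilled wild type.

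AT1G47400, placed in the list of iron-deficiency genes, had the same layout. It was at 5.17 and 5.26 in L20 and 4.79 and 5.32 in wild type after cold, and at 5.11 and 5.21 in L20, against 7.11 and 7.15 in wild type, before cold. Its interaction was 2.13 ± 0.30, made of 0.16 after cold and -1.97 before cold. BHLH101, a transcription factor gene of the iron-deficiency response, was at 4.94 and 4.67 in L20 and 4.65 and 4.34 in wild type after cold, and at 5.02 and 4.73 in L20, against 6.47 and 5.59 in wild type, before cold. Its lines did not overlap on either side of the cold, its difference before cold passed in neither fit (limma adjusted p = 0.522, and 0.105 with the block), and its interaction was 1.47 ± 0.44. PYE, a regulator of the same response, stood at 0.25 ± 0.38 and overlapped before cold. Of 16 listed iron loci, 3 could be matched to a probe set named here, and 2 of these 3 were above 0 at an unadjusted p under 0.05, where 0.712% of all probe sets were. The list's median was 1.47, from 0.16 after cold and -1.16 before cold.

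AT4G27280, placed in the list of touch-induced, rapid stress and calcium-sensor genes, was at 6.52 and 5.99 in L20 and 6.53 and 6.40 in wild type after cold. Before cold it was at 8.83 and 7.90 in L20, against 10.36 and 10.80 in wild type. Unlike ORA47 it kept a cold response in L20, of -2.11, against -4.12 in wild type, and its interaction was 2.01 ± 0.49. STZ, also called ZAT10, a stress-induced zinc-finger repressor, had an interaction of 2.19 ± 0.88 that was uneven, at 1.06 and 3.31 in the replicate numbers. These were the 2 of 17 measured members above 0 at an unadjusted p under 0.05, where 0.712% of all probe sets were, and the list's median was 0.18. Of the 17 members 7 had their origin before cold, a smaller share than the 46.9% over all probe sets.

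The third group stood high in unchilled L20 alone, while the mean of wild type moved little with cold. AT4G30470 was at 5.16 and 5.78 in L20 and 5.45 and 5.57 in wild type after cold, and at 8.81 and 8.53 in L20, against 5.31 and 5.66 in wild type, before cold. Its interaction was -3.23 ± 0.36 (limma adjusted p = 0.297, and 0.135 with the block), and the difference before cold passed at 3.19 ± 0.26 (limma adjusted p = 0.0333). Here the cold response was -3.20 in L20 and 0.03 in wild type. EXPA16, an expansin gene of the family that loosens cell walls, was at 4.66 and 4.20 in L20 and 4.48 and 4.38 in wild type after cold, and at 6.34 and 5.89 in L20, against 4.41 and 4.20 in wild type, before cold. Its interaction of -1.80 ± 0.34 was even between the replicates, at -1.74 and -1.86.

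IAA29 encodes an Aux/IAA repressor of the auxin response. It was at 5.26 and 6.60 in L20 and 4.92 and 6.25 in wild type after cold, and at 8.76 and 9.45 in L20, against 6.10 and 5.82 in wild type, before cold. Replicate 2 was higher than replicate 1 in both lines after cold, by about the same amount. The interaction was -2.79 ± 0.80, from 0.35 after cold and 3.14 before cold. The cold response was -3.17 in L20 and -0.38 in wild type, where replicate 1 fell and replicate 2 rose. HAT2, a homeodomain-leucine zipper gene induced by auxin, stood at -1.57 ± 0.51 in the same layout.

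ARL, which promotes cell expansion downstream of brassinosteroid, went the other way within the auxin list, at 2.39 ± 0.56. After cold it was at 6.54 and 6.75 in L20 and 6.83 and 7.24 in wild type, and before cold at 5.48 and 6.06 in L20, against 7.98 and 9.11 in wild type. L20 was the lower line on both sides of the cold, by -0.39 after and -2.78 before. The list of 17 auxin genes thus held 2 members below and 1 above 0 at an unadjusted p under 0.05, where 1.47% of all probe sets were below and 0.712% above, with a median of -0.10.

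Among the 28 measured genes of gibberellin, brassinosteroid and cell expansion, 3 stood below 0 at that threshold, where 1.47% of all probe sets did, and 0 above it, and the median was -0.11. They were EXPA16, the expansin-like gene EXLA1 and EXO, which is induced by brassinosteroid and promotes leaf growth. EXLA1 had the COR layout, with cold responses of 0.31 in L20 and 2.00 in wild type, and its interaction of -1.69 ± 0.55 was -2.80 and -0.57 in the replicate numbers. By its means EXO had its origin on both sides: L20 minus wild type was -0.64 after cold and 1.17 before cold. The replicate numbers differed in this, with -0.30 after and 1.96 before cold in replicate 1, and -0.99 and 0.38 in replicate 2. The 2 wild-type arrays of EXO before cold were at 6.72 and 8.18.

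The fourth group stood low in unchilled L20. AT3G15760 was at 5.71 and 6.06 in L20 and 5.66 and 6.24 in wild type after cold, and at 4.92 and 5.04 in L20, against 6.57 and 7.05 in wild type, before cold. Its cold responses had opposite signs, 0.91 in L20 and -0.86 in wild type, and the interaction was 1.77 ± 0.39. CHX20, a cation/proton exchanger of guard cells that takes part in stomatal opening, had an interaction of 1.32 ± 0.29. After cold it stood at 6.33 and 6.56 in L20 and 6.11 and 6.15 in wild type, and before cold at 5.91 and 5.48 in L20, against 6.77 and 6.63 in wild type. Its lines were apart on both sides of the cold: L20 was the higher line after cold, by 0.32, and the lower one before it.

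AT2G23840, AT3G10120 and AT2G30600 completed the 8 named genes above 0. AT2G23840 had cold responses of 1.56 in L20 and 0.45 in wild type, AT3G10120 of -0.55 and -1.87, and AT2G30600 of 0.29 and -1.17. After cold AT3G10120 lay below the lower quartile of every array in both lines. AT2G30600 had a second probe set with an interaction of 1.78 beside 1.46 for the one named. All 8 genes above 0 and 7 of the 8 below 0 had their origin before cold. The limma adjusted p-values lay between 0.297 and 1 in both sets, and with the block between 0.135 and 0.503 above 0 and between 0.0714 and 0.501 below 0.

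**Figure D4:**
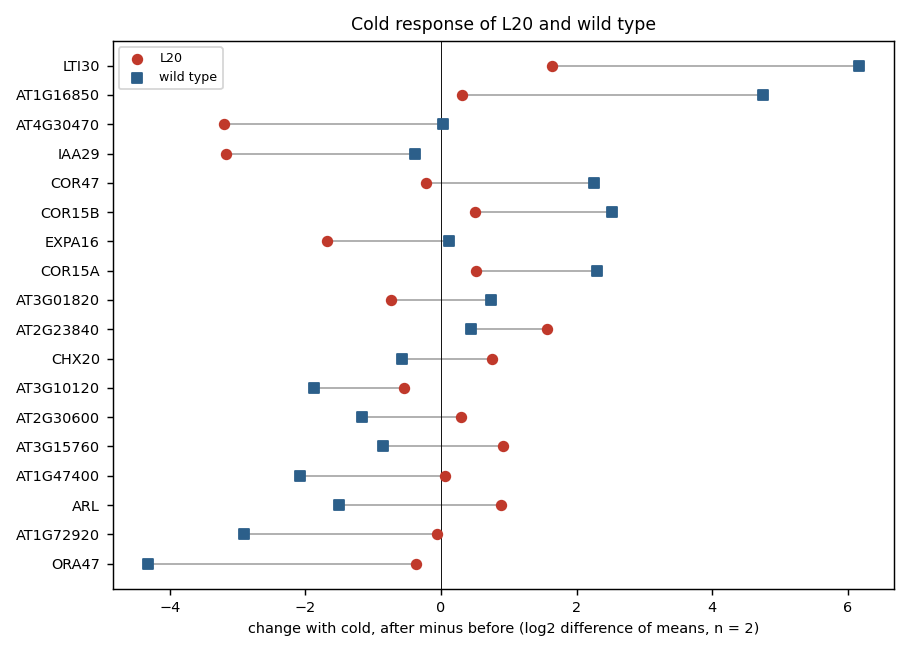
Change with cold (after minus before, as a log2 difference of means, n = 2 arrays per group) in L20 (circles) and wild type (squares) for the 16 named genes with the smallest interaction p in each direction, with IAA29 and ARL. LTI30, AT1G16850, the COR genes, ORA47 and AT1G72920 have the long arm in wild type, while AT4G30470, IAA29 and EXPA16 have it in L20.

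An origin after cold was given to 18.8% of all probe sets and to 1 of the 130, AT1G74780. After cold it was at 4.33 and 4.25 in L20 and 4.94 and 4.85 in wild type, and before cold at 5.23 and 4.96 in L20, against 4.75 and 4.86 in wild type. Its difference was -0.61 after cold and 0.28 before cold, and the interaction was -0.89 ± 0.25, or -1.09 and -0.69 in the replicate numbers. In replicate 1 the difference was -0.61 after and 0.48 before cold, and in replicate 2 it was -0.60 and 0.09. Replicate 1 alone would thus not meet the rule for an origin after cold. The next smallest p-values with an origin after cold were those of AT1G03180 (0.73 ± 0.27), AT3G20280 (0.74 ± 0.29) and AT4G16660 (-0.59 ± 0.27). AT3G20280 stood at 1.21 in replicate 1 and 0.28 in replicate 2.

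AT3G01820 was split nearly evenly between both sides. After cold it was at 5.62 and 5.55 in L20 and 6.27 and 6.27 in wild type, and before cold at 6.43 and 6.24 in L20, against 5.59 and 5.46 in wild type. The order of the lines was exchanged by cold without overlap on either side. The interaction was -1.49 ± 0.23, at -1.48 and -1.49 in the replicate numbers, from -0.68 after cold and 0.81 before cold (limma adjusted p = 0.924, and 0.284 with the block). AT5G19930 (-1.14 ± 0.30), AT1G71140 (0.94 ± 0.31) and AT5G15790 (0.69 ± 0.24) had the same origin. The class with like differences of the same sign on both sides has small interactions by its definition, and the 4 genes with the smallest p there were AT4G02200 (0.39), AT5G08500 (-0.24), AT5G18130 (-0.26) and PIA1 (-0.21).

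The shape of the response also varied. Among the 130, L20 and wild type moved in opposite directions with cold in 70, in the same direction with a smaller step in L20 in 34 (26.2%), and with a larger step in L20 in 26 (20%). Over all probe sets 37.7% had opposite signs, 27.1% a smaller step in L20 and 35.3% a larger one. The 130 were chosen by the interaction, and that choice by itself favours opposite signs, so these shares test nothing. In 1969 probe sets (8.66% of all) both replicates of L20 moved against both replicates of wild type, and in 5 of these both lines moved by at least 2-fold. SWEET4, a sugar transporter gene, was the 1 named gene among those 5 and was picked out after its values were seen. It was at 6.24 and 7.42 in L20 and 6.01 and 7.64 in wild type after cold, and at 8.89 and 8.54 in L20, against 5.71 and 5.47 in wild type, before cold. Its cold responses were -1.89 in L20 and 1.24 in wild type, and its interaction was -3.12 ± 0.81.

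The replicate numbers differed in the genes that respond most to cold in wild type. The 200 probe sets with the highest cold response of wild type in replicate 2 had, in replicate 1, a median response of 1.37 in L20 and 2.28 in wild type, with L20 minus wild type at 0.06 after cold and 0.83 before cold. The 200 chosen in replicate 1 had, in replicate 2, responses of 1.56 in L20 and 1.71 in wild type, with -0.13 after cold and -0.06 before cold. For probe sets with the lowest cold response of wild type the numbers changed places. Chosen in replicate 1 and read in replicate 2, they stood at -0.65 in L20 and -1.69 in wild type, and L20 minus wild type was -0.84 before cold. Chosen in replicate 2 and read in replicate 1, they stood at -1.18 in L20 and -1.22 in wild type, and L20 minus wild type was -0.03 before cold. These are medians of different sets of 200 in each replicate number, and single genes such as LTI30, AT1G16850, ORA47 and AT1G72920 were apart before cold in both.

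Of the other fixed lists, 0 of 105 measured P450, glycosyltransferase and glutathione transferase genes, 0 of 67 plastid-encoded genes, 0 of 16 bZIP genes, 0 of 15 cell wall genes, 0 of 10 nuclear photosynthesis genes and 0 of 9 aldehyde dehydrogenase and proline genes had an unadjusted p under 0.05. With 2.18% of all probe sets at that threshold, a count of 0 in the shorter lists says nothing about their members. The median interactions of these lists were -0.02, -0.21, -0.12, -0.10, 0.12 and -0.22 in that order. Of the 67 plastid-encoded genes 57 stood below 0, where 56.4% of all probe sets did. Their median was -0.02 after quantile normalization and ran from -0.64 to 0.18 with 1 array left out. The starch, flavonoid and glucosinolate lists, with 5, 4 and 3 measured genes, held 0 at that threshold, with medians of 0.00, 0.18 and 0.36. With 1 array left out the flavonoid median ran from -0.05 to 0.35 and the glucosinolate median from 0.03 to 0.69. The glucosinolate extremes came without replicate 2 and without replicate 1 of L20 before cold. The clock list, with 3 measured genes, held COR27 only, and GI, a clock gene, stood at 0.33 ± 0.42. ORA47 was the 1 member at that threshold among 3 jasmonate genes and among 8 ERF, DREB and WRKY genes, and AT1G72920 the 1 among 5 defence genes.

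**Figure D5:**
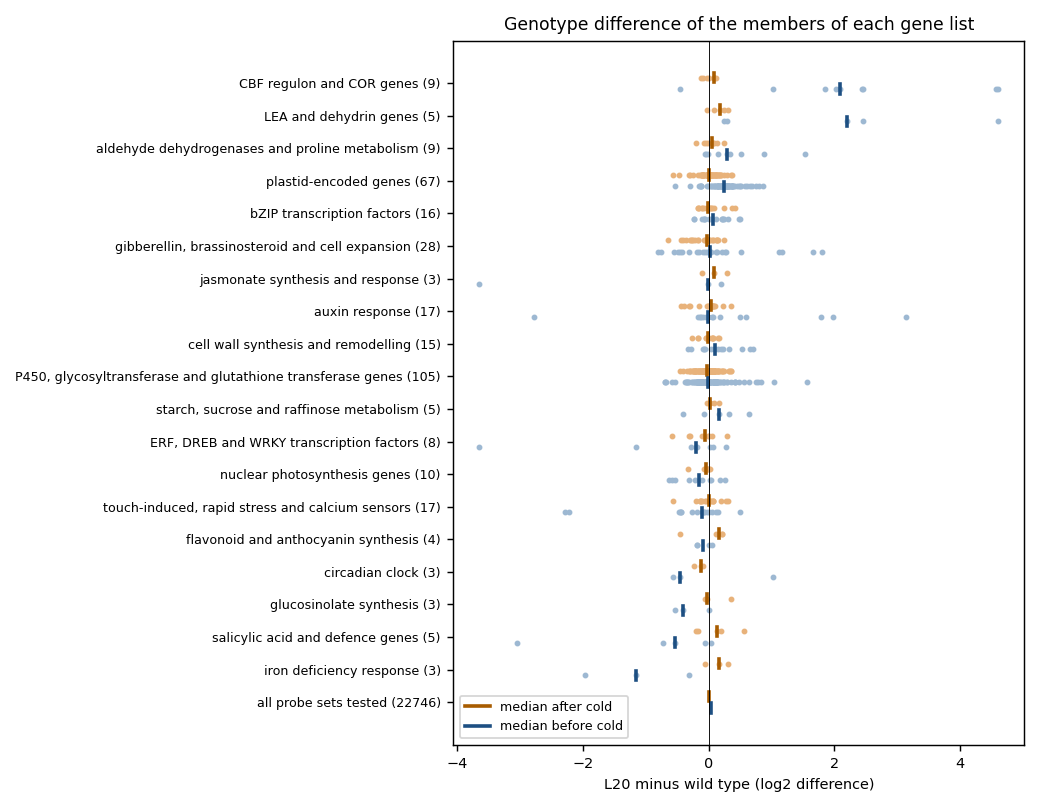
L20 minus wild type (log2 difference) of each measured member of the gene lists, after cold (orange, upper line of each list) and before cold (blue, lower line), with the median as a bar and the number of measured genes in brackets. The COR and dehydrin lists lie to the right and the iron list to the left before cold, while after cold every list's median is within 0.2 of 0.

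Which direction prevailed depended on the scaling and on single arrays. At an unadjusted p under 0.05, 162 probe sets stood above and 335 below 0, so 67.4% were below. After quantile normalization the share below 0 was 47.9%, and without replicate 1 of wild type before cold it was 34.5%. That array had the lowest upper quartile, 6.28, against 6.64 in replicate 1 of L20 before cold, and the other 6 arrays lay between 6.46 and 6.58. The array medians ran from 4.95 to 5.05. Of the cell-type markers fixed for this work 5 were measured: RCA, of photosynthetic tissue, stood at 12.62 to 13.52 on the 8 arrays, and the root-hair gene EXPA7, the guard-cell gene FMA, the meristem gene CLV3 and AT5G45880, listed for flower and pollen, at 4.00 to 5.98. Their interactions lay between -0.28 and 0.10. In whole seedlings, fewer cells of a type and less RNA per cell cannot be told apart.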

How the data were processed

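The authors deposited 1 table of log2 signals for 8 arrays, and the submitters' processing notes name RMA, with no version. Sample titles gave each array its group and replicate number. limma 3.58.1 in R 4.3.3 was fitted with a mean per group over 22746 probe sets and 8 arrays (lmFit, contrasts and default eBayes). Its two-sided p-values were adjusted by Benjamini-Hochberg. The script was tested on simulated data without shifts shared by equal replicate numbers, so that test does not cover such shifts. The threshold for a call was an adjusted p of 0.05. Errors written after ± are limma's standard errors unless marked SD.

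Gene names came from the platform annotation, updated through Entrez identifiers with RefSeq names of assembly TAIR10.1: 13513 probe sets had 1 gene, 503 several and 8730 none here, and 13436 matched RefSeq. A gene with several probe sets was represented in lists by the one with the highest mean. The rule for naming took the 8 one-gene probe sets with the smallest interaction p in each direction (none was called), the 4 with the smallest p in each class of origin, 3 members of each list described, and COR15A, COR15B, COR47, LTI30, AT1G16850, ORA47 and IAA29. List entries caught by symbol alone were removed by their annotation. The members and lists were chosen with earlier results of these data known. The probe sets chosen by the cold response of wild type were added after seeing the data.

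Whether equal replicate numbers pair the arrays was checked before the fits were compared. The deviations of replicate 1 from replicate 2 correlated between every 2 groups, so a fit with the replicate block is given beside the main one. The lowest correlation, 0.341, was that of the 2 unchilled groups, and the highest, 0.837, that of the 2 chilled groups. Within a replicate number the signals of the chilled lines correlated at 0.993 and 0.992, those of the unchilled lines at 0.962 and 0.973. The 2 replicates of a group correlated at 0.955 to 0.968. A single block term shared by all groups does not model this uneven pairing. The labels do not state what the replicates share, so p-values rest on a spread between samples that may be technical. With 2 arrays per group, their number limits the precision, and an exact permutation test of 2 against 2 cannot go below 0.333. Sequences and coordinates are not used here.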

Additional observations from a re-analysis of the deposited data

How the results depend on the processing

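The interaction was recomputed with the replicate block, with trend and robust settings, without dim probe sets, after quantile normalization, after median centring and with each of the 8 arrays left out in turn. By limma 0 probe sets were called in each of these 13 alternatives, as were 0 of the list members, and the lowest adjusted p ran from 0.0714 with the replicate block to 1. The count at an unadjusted p under 0.05 was 497, 1215 with the replicate block, 389 with trend and robust settings, 304 without dim probe sets, 654 after quantile normalization, 521 after median centring and 363 to 934 with 1 array left out. The genotype difference after cold gave 0 calls throughout. Before cold the count of 4 became 38 with the replicate block, 8 without dim probe sets, 17 after quantile normalization and 0 to 0 with any 1 of the 8 arrays left out, of either line before or after cold. The share of the probe sets at an interaction p under 0.01 with an origin before cold was 97.7%, 95.8% with the replicate block, and 83.5% to 99.1% with 1 array left out. It was 98.5% and 96.9% when the larger difference had to be at least 1.5 or 3 times the smaller. The part of the shared interaction that came from before cold was 105.5% on average over both directions, 104.6% after quantile normalization and 103.9% without dim probe sets. The 28 named genes with a value per alternative kept their direction in all 356 of these values. Most of them were chosen by a small interaction p in the same arrays, and that choice favours a kept direction. The replicate block, the trend and robust settings and the removal of dim probe sets leave the interaction value itself unchanged, so they could reverse none. Of 171 values of list medians, 43 moved by more than the spread between the replicate numbers. The cause of these shifts was not tested.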

Other observations

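Of the 130 probe sets with an interaction p under 0.01, 75 had no gene name here and 3 had several. The smallest p of all belonged to an unnamed probe set, at 11.07 and 11.02 in L20 and 10.99 and 11.07 in wild type after cold, and at 11.52 and 11.15 in L20, against 7.29 and 8.03 in wild type, before cold. Its interaction was -3.66 ± 0.38 (limma adjusted p = 0.297, and 0.135 with the replicate block). The lists with fewer than 3 measured genes were those of abscisic acid (LEA4-5 alone), of heat shock with a median interaction of -0.02 over 2 genes, of dark-induced and sugar-starvation genes with 0.72 over 2 genes, and of phosphate and nitrate nutrition with 0.35 for 1 gene.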
